A study of Mus musculus with 12 samples.

Results

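The genes described here lie on either side of Nkx2-5 on mouse chromosome 17, within about 3 Mb of it, and were taken as a list of 57 neighbours by position and not by their values. Array probes were assigned to them through the transcript accession that the scanner files give for each probe. The list has 78 probes, and 55 of the 57 genes had a probe that could be tested, among 29795 genes and unnamed features tested in all. Total RNA from the heart apex of male C57BL/6J mice aged 15 weeks was hybridised to 12 Agilent arrays read in 1 colour, 3 for each of 4 genotypes. I183M/+ hearts carried an Nkx2-5 knock-in allele with methionine in place of the isoleucine at residue 183, and I183P/+ hearts one with proline there. Delta/+ hearts carried a full deletion of Nkx2-5, and control/+ hearts a knock-in allele that keeps the isoleucine, so that every group, control included, had 1 targeted and 1 + allele. The labels do not name the embryonic stem cells used, the end points of the deletion, the selection cassette or the number of backcrosses. They also do not say whether the 3 replicates came from separate animals, so p-values measure the spread between these samples, which may be technical.

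Nkx2-5 encodes a homeodomain transcription factor that is needed for the heart to form and that stays active in adult heart muscle. A gene altered by homologous recombination stays joined to the chromosome segment around it, so breeding to another strain carries neighbouring genes along until recombination separates them. An altered allele can also act on nearby genes through its deleted or inserted sequence. The neighbours of Nkx2-5 have many roles: stress kinases and regulators of cell death, chromatin and RNA-processing proteins, mitochondrial and metabolic proteins, channels and signalling proteins, and proteins of folding and turnover. The comparisons below ask which of them differed between genotypes, whether the nearest genes differed more than distant ones, and whether different probes of a gene gave the same answer.

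The stretch holds 179 annotated genes from Cacna1h at one end to Pim1 at the other, 106 of them protein-coding, in the RefSeq annotation of GRCm38.p6. Because the probe layout was built on mm9, distance from Nkx2-5 is given as gene order and not in bases. Bnip1 is the next gene on the Cacna1h side, with 0 annotated genes between it and Nkx2-5, followed by Crebrf (1 gene between) and Atp6v0e (2 genes between). On the other side Kifc5b comes first among the listed genes, with 4 annotated genes between, then Phf1 (6), Cuta (8) and Zbtb9 (12). Kifc5b was well above background on 1 array and Sox8 on 0, and neither was tested.

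To show the letters through which Nkx2-5 protein could bind near these genes, the 250 bases before the transcription start were searched for TNAAGTG, the element bound by NK-2 class homeodomain proteins, on both strands. The motif was present in 6 of 50 listed genes with an entry in the RefSeq promoter table (12%), against 2713 of 27025 genes in the whole table (10.0%). The 6 were Rab11fip3, Cuta, Ip6k3, Hmga1, Def6 and Pi16. A match describes these letters only and is not a bound site. Printed below, 5′ to 3′ on the gene's own strand in GRCm38.p6 with matches in capitals, are Bnip1 as the nearest gene (chr17:26780829-26781078, + strand), Cuta as a near gene with 2 matches, 118 and 92 bases before the start (chr17:26939459-26939708, - strand), Bak1 and Pim1 as genes with the smallest p-values below (chr17:27028628-27028877, - strand, and chr17:29490535-29490784, + strand), and Pi16 with 1 match 146 bases before its start (chr17:29318632-29318881, + strand).
Bnip1: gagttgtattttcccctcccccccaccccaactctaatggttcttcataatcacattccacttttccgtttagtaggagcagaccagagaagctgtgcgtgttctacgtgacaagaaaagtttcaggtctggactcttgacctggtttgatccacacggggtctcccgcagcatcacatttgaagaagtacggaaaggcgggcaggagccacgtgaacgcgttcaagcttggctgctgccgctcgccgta
Cuta: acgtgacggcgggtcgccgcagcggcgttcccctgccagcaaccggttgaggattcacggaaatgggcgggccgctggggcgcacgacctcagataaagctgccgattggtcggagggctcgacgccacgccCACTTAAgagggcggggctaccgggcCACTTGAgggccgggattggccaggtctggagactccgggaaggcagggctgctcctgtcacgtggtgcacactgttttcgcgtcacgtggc
Bak1: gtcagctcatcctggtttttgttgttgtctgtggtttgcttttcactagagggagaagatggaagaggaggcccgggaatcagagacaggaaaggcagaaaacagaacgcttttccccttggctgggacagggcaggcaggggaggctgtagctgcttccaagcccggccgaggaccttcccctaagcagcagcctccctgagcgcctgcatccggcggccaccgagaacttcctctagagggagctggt
Pim1: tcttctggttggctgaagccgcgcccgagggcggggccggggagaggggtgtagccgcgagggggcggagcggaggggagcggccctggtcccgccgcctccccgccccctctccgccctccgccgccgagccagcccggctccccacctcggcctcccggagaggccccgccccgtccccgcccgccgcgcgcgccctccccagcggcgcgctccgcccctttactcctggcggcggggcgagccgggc
Pi16: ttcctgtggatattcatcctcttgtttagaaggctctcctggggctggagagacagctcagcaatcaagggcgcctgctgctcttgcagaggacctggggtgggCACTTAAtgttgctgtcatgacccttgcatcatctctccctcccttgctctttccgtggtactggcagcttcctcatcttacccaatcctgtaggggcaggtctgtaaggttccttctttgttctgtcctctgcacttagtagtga

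Levels are log2 of the background-corrected intensity minus the array's 75th percentile, and differences are log2 folds of the first-named group over the second. Control replicate 1 stood apart before any comparison. The share of its spots flagged well above background was 99.1%, against 51.2% to 75.2% on the other 11 arrays, and its median intensity was 602 against 34.8 to 92.5. For 42 of the 55 tested neighbours it gave the lowest level of all 12 arrays, by a median of -1.39 from the median of the other 11, whose own range had a median of 0.51. For 10 neighbours, most of them dim, it gave the highest level instead, by a median of 2.47, and for 3 (Cdkn1a, Rgs11 and Pim1) it lay inside. For most genes described below, folds against control are therefore given with all 12 arrays and without this array.

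**Figure D1:**
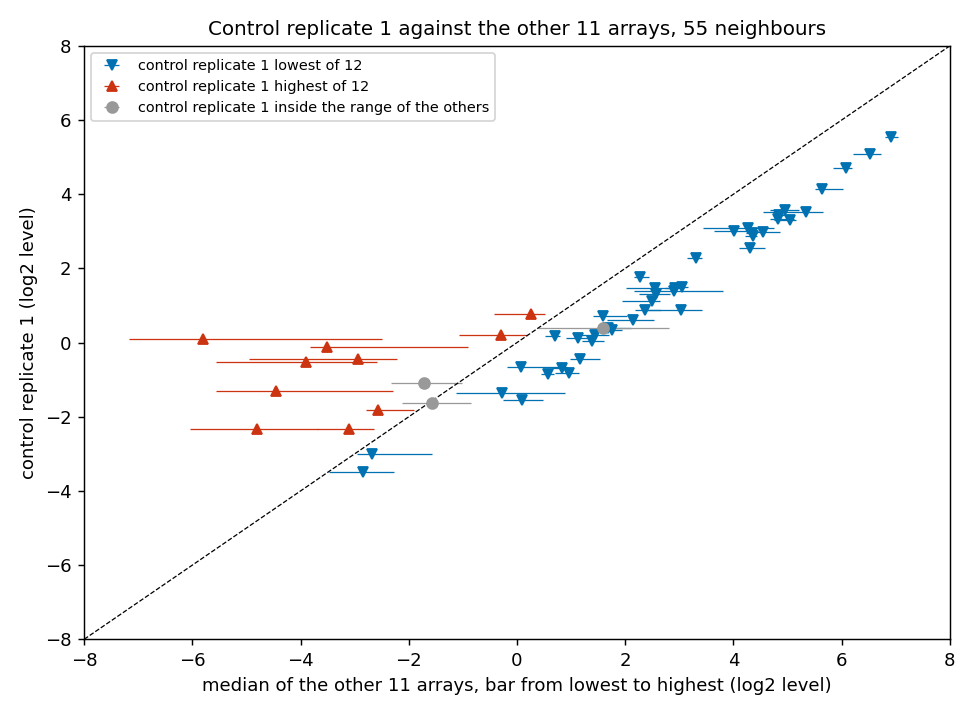
Level of each of the 55 tested neighbours on control replicate 1 (vertical axis, log2 relative to the array's 75th percentile) against the median of the other 11 arrays (horizontal axis, bars from their lowest to their highest). The 42 genes drawn as blue triangles lie below the others on this array, the 10 drawn as red triangles lie above, and the broken line marks equal levels.

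All 7 ventricular muscle markers checked were well above background on all 12 arrays, and their summed level lay between 12.23 and 12.54 on the 11 other arrays. Atrial muscle markers (Myl7, Myl4 and Sln) varied more: their summed level lay between 4.44 and 5.51 in I183M, 1.54 and 6.46 in I183P, 3.76 and 7.57 in delta, and 1.73 and 5.94 in control hearts. All 3 were above background on every array, and 0 of 3 passed the threshold in any comparison without control replicate 1. The summed markers of some other cell types separated some genotypes, though single markers did not always follow the sum. The summed level of the endothelial markers Pecam1, Cdh5 and Kdr, 3 of 3 above background on every array, lay between 5.56 and 5.72 in I183P and 5.33 and 5.60 in delta hearts, wholly above 5.18 to 5.28 in I183M and 4.15 to 5.26 in control hearts. That of the lymphocyte markers Cd3e, Cd79a and Ms4a1, 1 of 3 above background on every array, lay between 0.768 and 1.07 in I183P and 1.03 and 1.18 in delta hearts, above 0.542 to 0.766 in I183M and 0.350 to 0.627 in control hearts. Adipocyte markers (Adipoq, Plin1 and Cfd), 1 of 3 above background on every array, summed to between -1.84 and 0.10 in I183P against 0.98 and 1.40 in I183M hearts, with a median fold of -2.03. Erythroid markers (Hbb-bt, Hba-a1 and Alas2) summed to between 8.05 and 8.51 in I183P against 7.85 and 7.95 in I183M hearts. All 3 were above background on every array. Lung markers (Sftpc and Scgb1a1) summed to between -4.47 and -3.79 in I183P against -3.44 and -2.85 in delta hearts. Of these 2, 0 were above background on every array. For each of these types 0 markers passed the threshold in any comparison without control replicate 1. The part of atrial, endothelial, lymphoid, fat, blood or lung tissue in the values below was not tested. In a tissue RNA fewer cells of a type and less RNA per cell cannot be told apart.

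Nkx2-5 read 4.74, 4.83 and 4.76 in I183M hearts, 4.96, 4.76 and 4.71 in I183P hearts, 3.97, 3.97 and 4.14 in delta hearts, and 3.17, 4.67 and 4.78 in control hearts. Every delta array lay below every array of the other genotypes except control replicate 1. With all 12 arrays the delta difference from control was -0.18 ± 0.38 (SE; limma adjusted p = 0.896), and without control replicate 1 it was -0.70 ± 0.11 (adjusted p = 0.0626), a ratio of 0.616. Without that array delta was lower than I183M by a log2 fold of -0.75 ± 0.10 (limma adjusted p = 0.0568) and lower than I183P by -0.78 ± 0.10 (adjusted p = 0.0816). With normexp background correction and quantile normalization over all 12 arrays, the delta difference from control was -0.73 with a limma adjusted p of 0.0322, which is past the threshold of 0.05. In that setting delta differed by -0.86 from I183M (limma adjusted p = 0.0227) and by -0.83 from I183P (adjusted p = 0.0385). All delta arrays are on slide 2, and all control and I183M arrays on slide 1. With the slide as a block on all 12 arrays, the delta difference was -0.04 ± 0.72 from control. It was -0.61 ± 0.72 from I183M and -0.69 ± 0.56 from I183P. I183M and I183P differed from control by 0.05 and 0.08 without control replicate 1. The deletion is described as full, which would place the probe within it, but its end points are not given in the sources used here.

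For none of the 6 nearest tested genes were the delta arrays wholly below the I183M and I183P arrays, as they were for Nkx2-5. Bnip1, a membrane-fusion protein of the endoplasmic reticulum that binds BCL2 family proteins, read 1.45, 1.31 and 1.39 in I183M, 1.26, 1.34 and 1.40 in I183P, 1.44, 1.33 and 1.20 in delta, and 0.04, 1.57 and 1.61 in control hearts. All 9 mutant arrays lay between control replicate 1 and the other control arrays. Without control replicate 1 the difference was -0.20 ± 0.11 in I183M, -0.26 ± 0.11 in I183P and -0.27 ± 0.11 in delta hearts (limma unadjusted p = 0.0879, 0.0394 and 0.0342, adjusted p = 0.729, 0.581 and 0.294), a lower level in all 3 genotypes on only 2 control arrays. With all 12 arrays the same differences were positive, at 0.31, 0.26 and 0.25.

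Crebrf, a regulator of the endoplasmic reticulum stress response, was dim and spread widely. It read -3.44, -2.80 and -3.05 in I183M, -2.28, -2.72 and -3.21 in I183P, -2.84, -2.91 and -2.52 in delta, and -3.49, -3.47 and -2.84 in control hearts, and the 4 groups overlapped. Its difference from control without control replicate 1 was 0.06 ± 0.32, 0.42 ± 0.32 and 0.40 ± 0.32 in I183M, I183P and delta hearts, and with all 12 arrays 0.17, 0.53 and 0.51. Atp6v0e, a subunit of the proton pump that acidifies lysosomes, was bright and even. It read 4.85, 4.84 and 4.74 in I183M, 4.81, 4.74 and 4.73 in I183P, 4.87, 4.82 and 5.03 in delta, and 3.45, 4.93 and 4.91 in control hearts. Without control replicate 1 its delta difference was -0.01, with a 95% interval of -0.23 to 0.21, and with all 12 arrays it was 0.48 ± 0.36.

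On the Pim1 side, Phf1, a partner of the Polycomb repressive complex, read 0.99, 1.14 and 1.09 in I183M, 1.12, 1.03 and 1.27 in I183P, 1.30, 1.19 and 1.54 in delta, and -0.44, 1.17 and 1.19 in control hearts. On this probe, the brighter of 2, delta arrays lay above all I183M arrays and overlapped the I183P arrays. The delta difference from control was 0.70 ± 0.39 with all 12 arrays and 0.16 ± 0.13 without control replicate 1. Without that array the delta difference from I183M was 0.27 ± 0.12 (limma unadjusted p = 0.0466, adjusted p = 0.431). The dimmer Phf1 probe, well above background on all 12 arrays, went the other way. It averaged -2.77 in delta, -2.30 in I183M and, without control replicate 1, -2.46 in control hearts. Cuta, a small conserved protein first described as a partner of brain acetylcholinesterase, read 4.86, 5.11 and 5.12 in I183M, 5.20, 5.19 and 4.68 in I183P, 4.89, 4.84 and 4.81 in delta, and 3.58, 4.96 and 5.21 in control hearts. The delta arrays sat at the low edge of the other 8 remaining arrays, and the difference from control without control replicate 1 was -0.24 ± 0.18, of the other sign from the 0.27 ± 0.38 found with all 12 arrays. Zbtb9, a zinc-finger protein, read 0.25, 0.28 and 0.30 in I183M, 0.11, 0.11 and 0.31 in I183P, 0.33, 0.52 and -0.42 in delta, and 0.77, 0.13 and 0.23 in control hearts. Its delta arrays covered the range of the other groups without control replicate 1, and the difference was -0.03 ± 0.24, against -0.23 ± 0.28 with all 12 arrays. Lemd2, a protein of the inner nuclear membrane with 10 coding genes between it and Nkx2-5, was chosen after its values were seen as an even example: without control replicate 1 its 11 levels lay between 4.23 and 4.43.

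**Figure D2:**
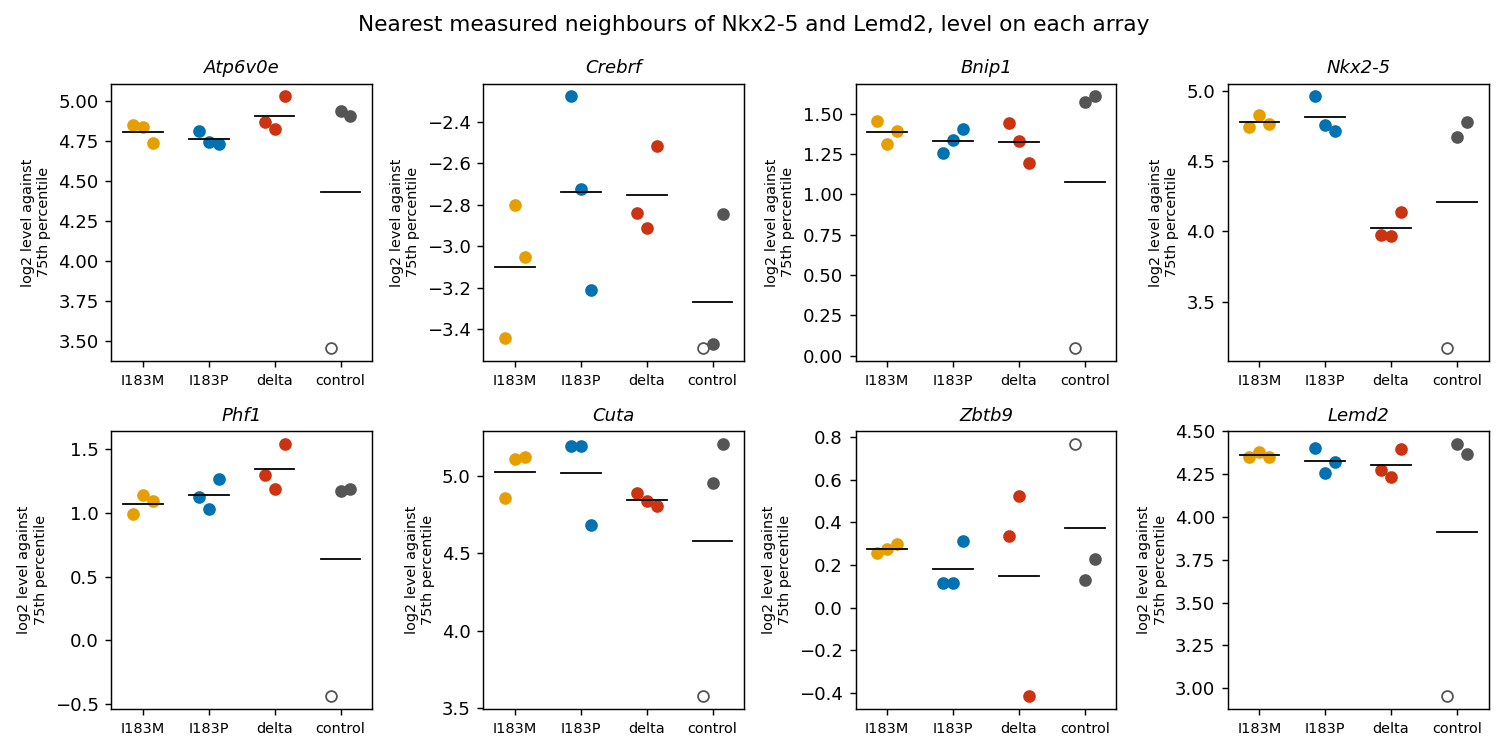
Log2 level relative to the array's 75th percentile of the 3 nearest tested neighbours on each side of Nkx2-5, of Nkx2-5 itself and of Lemd2, on each array. Points are arrays, the open circle is control replicate 1, and lines are means of 3 arrays. The 3 delta arrays of Nkx2-5 lie between 3.97 and 4.14, below the other arrays except the open circle, and no neighbour shown has all its delta arrays below the I183M and I183P arrays.

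Across the whole list, 0 of 55 neighbours passed a limma adjusted p of 0.05 in any comparison with control on all 12 arrays. Over all features, 0% passed in I183M, 0.00336% in I183P (1 feature) and 0.0436% in delta (13 features). At an unadjusted p under 0.05 there were 0 of 55 in I183M against 1.37% of all features, 3 of 55 in I183P (5.45%) against 4.9%, and 2 of 55 in delta (3.64%) against 6.73%. The moderated F test over the 4 genotypes gave 0 of 55 as well, against 0.00336% of all features past the adjusted threshold, and 0 of 55 at an unadjusted p under 0.05, against 3.61%. Without control replicate 1, again 0 of 55 passed the adjusted threshold, against 0% of all features in I183M, 0.0168% in I183P, 0.198% in delta and 0.047% in the F test. At an unadjusted p under 0.05 there were then 4 of 55 in I183M (7.27%) against 6.07%, 9 in I183P (16.4%) against 8.09%, 9 in delta (16.4%) against 14.7%, and 7 in the F test (12.7%) against 12.6%. Those 9 genes in I183P were Bak1, Mapk14 and Stk38, which were higher than control, and Bnip1, Nme4, Ip6k3, Arhgdig, Fkbp5 and Srsf3, which were lower. In delta they were Bak1, Pdia2 and Scube3 (higher) and Bnip1, Metrn, Mrpl28, Ip6k3, Rab11fip3 and Pi16 (lower). The Pdia2 and Scube3 values carry little weight, since Pdia2 was well above background on 1 delta and 1 control array and Scube3 on 2 delta and 1 control arrays. These control counts include control replicate 1, which read 0.08 for Pdia2 and -0.52 for Scube3. The remaining control arrays read -6.86 and -6.55 for Pdia2, and -4.96 and -5.57 for Scube3.

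The median of the list depended on control replicate 1. With all 12 arrays the median fold of the 55 neighbours against control was 0.32 in I183M, 0.42 in I183P and 0.29 in delta, beside 0.15, 0.02 and 0.08 over all features. The 43 other named genes of the stretch had medians of 0.29, 0.28 and 0.25. For 768 named genes elsewhere on chromosome 17 the medians were 0.24, 0.19 and 0.19. Without control replicate 1 the median of the 55 neighbours was -0.02, -0.05 and -0.07, beside 0.07, 0.00 and 0.14 over all features. The 95% interval of the difference from control then lay within 1 log2 unit of 0 for 45 of 55 neighbours in I183M, 42 in I183P and 41 in delta, or 81.8%, 76.4% and 74.5%. The shares over all features, which include unnamed ones and so are not a like set, were 57.7%, 56.5% and 53%.

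Whether the nearest genes had larger folds than the list depended on the processing. The 6 nearest tested genes had a median absolute fold from control of 0.10 in I183M, 0.11 in I183P and 0.20 in delta hearts without control replicate 1, against 0.10, 0.17 and 0.21 over all 55 neighbours. With normexp and quantile normalization over all 12 arrays the order turned in I183P and delta, at 0.16, 0.32 and 0.31 for the 6 nearest genes against 0.16, 0.17 and 0.19 over the list. With the same normalization and without control replicate 1 the nearest genes were at 0.07, 0.02 and 0.14, against 0.09, 0.15 and 0.18. Without that array and with the 75th percentile scaling, the 43 other named genes of the same stretch had 0.14, 0.22 and 0.23, and 768 named genes elsewhere on chromosome 17 had 0.15, 0.19 and 0.23. Spearman's rank correlation between absolute fold and the number of coding genes between a neighbour and Nkx2-5 was 0.04, 0.19 and 0.05 over the 55 genes, which share the same arrays. With normexp and quantile normalization and without control replicate 1 it was 0.09, 0.35 and 0.22. With all 12 arrays it was 0.09, -0.00076 and -0.01, and with normexp and quantile normalization over all 12 arrays 0.03, -0.06 and 0.01. Its sign thus changed between settings in I183P and delta, while in I183M it stayed between 0.03 and 0.09. By side, the 25 genes toward Cacna1h had a median delta fold of -0.17 and the 30 toward Pim1 one of -0.02, without control replicate 1.

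**Figure D3:**
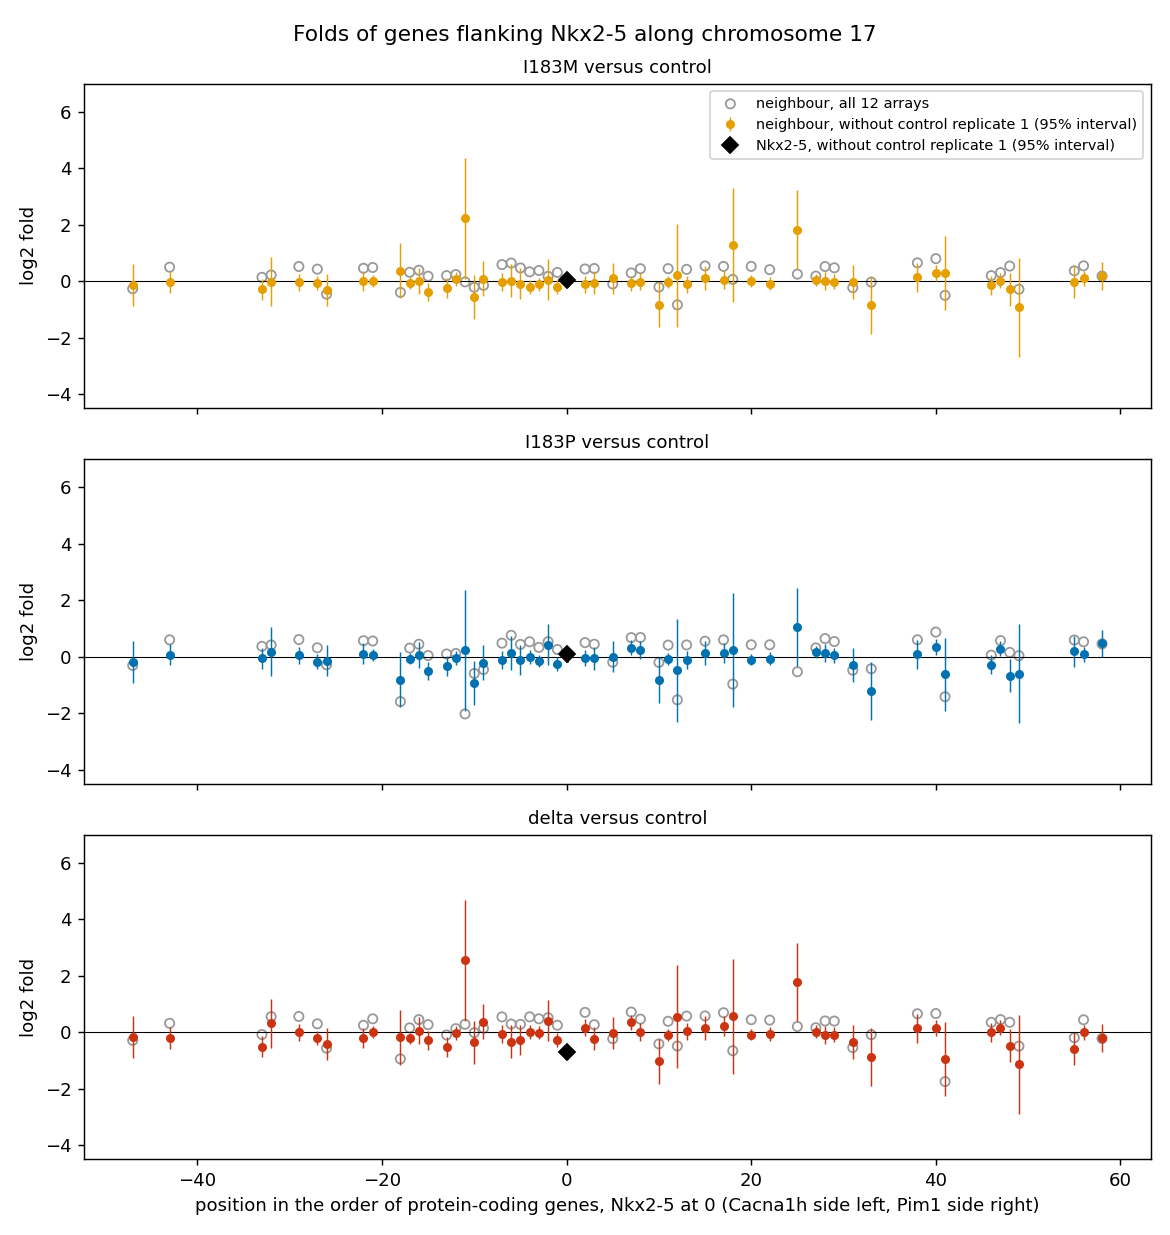
Log2 fold against control of each tested neighbour by its place in the order of protein-coding genes, with Nkx2-5 at 0, for I183M, I183P and delta hearts from top to bottom. Open circles use all 12 arrays, filled points leave out control replicate 1 and carry 95% intervals, and the black diamond is Nkx2-5. In the delta panel Nkx2-5 lies at -0.70 while the filled points beside it lie between -0.27 and 0.40.

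Among the 10 genes of stress response, growth arrest and death, 0 passed the adjusted threshold, and Bak1 had the most even pattern. Bak1, which permeabilises the outer mitochondrial membrane in apoptosis, read 2.26, 2.43 and 2.27 in I183M hearts, 2.71, 2.57 and 2.83 in I183P hearts, 2.75, 2.66 and 2.82 in delta hearts, and 1.30, 2.33 and 2.45 in control hearts. All 6 arrays of I183P and delta hearts lay above all 6 arrays of I183M and control hearts. The summed endothelial and lymphocyte markers given above separated the arrays in the same way, but single markers did not all follow the sums. Without control replicate 1, endothelial folds against control ran from -0.14 to 0.56 in I183P and from -0.23 to 0.33 in delta. Lymphocyte folds against control ran from 0.38 to 0.71 and from 0.31 to 1.19, but in delta against I183M from -0.11 to 2.08. The part of these cell types in the Bak1 values was not tested. Against control the difference was 0.68 ± 0.29 in I183P (limma unadjusted p = 0.0435, adjusted p = 0.56) and 0.72 ± 0.29 in delta (unadjusted p = 0.0346, adjusted p = 0.696) with all 12 arrays. Without control replicate 1 it was 0.31 ± 0.12 and 0.35 ± 0.12, ratios of 1.24 and 1.28, with adjusted p of 0.516 and 0.214 in limma. Against I183M, which does not involve that array, Bak1 differed by 0.39 in I183P and 0.42 in delta. Using slide 1 alone, I183P exceeded control by 0.61, a value that includes control replicate 1, and I183M by 0.32. The 2 I183P arrays on that slide read 2.71 and 2.57, against 2.33 and 2.45 on the remaining control arrays. With the slide as a block the delta difference was 0.52 from control, again with control replicate 1 included, and 0.23 from I183M. All delta arrays are on the other slide. With arrays weighted by their fit, which gave control replicate 1 a weight of 0.011, Bak1 at 0.32 and Stk38 at 0.27 passed in I183P against I183M (limma adjusted p = 0.0367 and 0.0488), 2 of 55 neighbours against 6.31% of all features. Bak1 has 6 coding genes between it and Nkx2-5 and 1 probe on the array.

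The stress kinases gave smaller or less even differences. Mapk14, p38 alpha, read 4.31, 4.47 and 4.41 in I183M, 4.59, 4.55 and 4.27 in I183P, 4.34, 4.29 and 4.15 in delta, and 2.55, 4.14 and 4.10 in control hearts. All 9 mutant arrays lay above the 3 control arrays on this brighter probe, by 0.80, 0.87 and 0.66 on average. Without control replicate 1 the differences were 0.27, 0.35 and 0.14. Mapk14 was the 1 of 55 genes whose I183M arrays lay wholly above control (1.82%, against 2.4% of all features). For 0 of 55 the I183M arrays lay wholly below (against 1.3%). The dimmer Mapk14 probe, well above background on all 12 arrays, averaged -1.84, -1.69 and -1.69 in I183M, I183P and delta hearts. Control hearts averaged -1.56 on it, and -1.66 without control replicate 1, so each mutant mean was lower. With normexp and quantile normalization over all 12 arrays both probes had the same sign. Stk38, a kinase of the NDR family, read 1.13, 0.91 and 0.99 in I183M, 1.38, 1.19 and 1.27 in I183P, 1.28, 1.16 and 1.04 in delta, and 0.13, 1.06 and 0.93 in control hearts. Its I183P arrays lay above all I183M and control arrays, with a difference from control of 0.28 ± 0.12 without control replicate 1 (limma adjusted p = 0.593) and 0.57 ± 0.26 with all 12 arrays. Its dimmer probe, well above background on all 12 arrays, went the other way in I183P against control, at -0.79 ± 0.43 with all 12 arrays and -0.26 ± 0.26 without control replicate 1, and at -0.42 against I183M. Mapk13, p38 delta, was dim, and was well above background on 11 arrays. It read -2.22, -2.76 and -2.64 in I183M, -3.08, -3.44 and -3.85 in I183P, -4.95, -2.64 and -3.77 in delta, and -0.46, -2.73 and -2.93 in control hearts. The delta arrays covered 2 log2 units and overlapped control. The delta difference from control was -1.75 ± 0.70 with all 12 arrays (limma unadjusted p = 0.0329, adjusted p = 0.688) and -0.96 ± 0.57 without control replicate 1. With normexp and quantile normalization and without that array, Mapk13 passed in delta at -0.48 (limma adjusted p = 0.0491), 1 of 55 neighbours against 0.943% of all features.

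Pim1, a survival kinase at the far end of the list with 57 coding genes between, was the neighbour with the smallest p in the direct comparisons of mutants on all 12 arrays, whereas without control replicate 1 and with array weights it was Bak1. It read -1.44, -1.65 and -1.32 in I183M, -1.36, -1.39 and -0.85 in I183P, -1.58, -2.13 and -1.92 in delta, and -1.62, -1.66 and -1.68 in control hearts. The 3 delta arrays lay below the 3 I183P arrays, while the control arrays, replicate 1 included, fell between -1.68 and -1.62. Delta was lower than I183P by a log2 fold of -0.68 ± 0.23 with all 12 arrays (limma unadjusted p = 0.0159, adjusted p = 1.00). On slide 2, which holds 1 of the I183P arrays, the delta minus I183P difference was -1.03. Some genes of this role varied widely within a genotype. Cdkn1a, the cell-cycle inhibitor p21, ranged from 0.38 to 2.82 within I183M hearts, and Fkbp5, a glucocorticoid-induced co-chaperone, from 2.26 to 3.67. Fkbp5 was 1 of the 9 genes at an unadjusted p under 0.05 in I183P without control replicate 1, at -1.23 ± 0.45 (limma adjusted p = 0.513), and at -0.43 ± 0.65 with all 12 arrays. Dusp1, an inducible phosphatase of these kinases, lay between 1.66 and 2.54 on the 11 arrays, and its 4 groups overlapped there.

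Of 11 tested transcription, chromatin and RNA-processing genes, 0 passed in any comparison, and their median folds against control without control replicate 1 were -0.02 in I183M, -0.07 in I183P and -0.07 in delta. Srsf3, a splicing factor, read 2.35, 2.47 and 3.25 in I183P and 3.30 and 3.42 on the remaining control arrays, and its I183P difference was -0.67 ± 0.26 (limma unadjusted p = 0.0315, adjusted p = 0.55), against 0.16 ± 0.59 with all 12 arrays. Srpk1, the kinase of such factors, had an I183M difference of 0.65 with all 12 arrays and 0.14 without control replicate 1, and Spdef, an ETS factor of secretory epithelia, was dim and covered -5.57 to -2.29 on the 11 arrays.

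Of 10 mitochondrial and metabolic genes, 0 passed the adjusted threshold. Nme4, a nucleoside diphosphate kinase of mitochondria, read 1.72, 1.66 and 1.69 in I183M, 1.58, 1.53 and 1.56 in I183P, 1.69, 1.59 and 2.07 in delta, and 0.39, 2.12 and 2.04 in control hearts. Without control replicate 1 it was lower than control in I183M by -0.38 ± 0.14 and in I183P by -0.52 ± 0.14 (limma unadjusted p = 0.0257 and 0.00604, adjusted p = 0.729 and 0.364). Mrpl28, a protein of the mitochondrial ribosome, read 3.94, 3.77 and 3.65 in delta and 4.40 and 4.25 on the remaining control arrays, a difference of -0.54 ± 0.16 (limma unadjusted p = 0.00822, adjusted p = 0.175). Ip6k3, an inositol hexakisphosphate kinase of muscle, was lower than those 2 control arrays by -0.83 in I183M, -0.82 in I183P and -1.04 in delta hearts, with control replicate 1 lowest of all at -1.37. With all 12 arrays these differences were smaller or of the other sign: 0.18 in I183M and 0.04 in I183P for Nme4, -0.10 in delta for Mrpl28, and -0.21, -0.20 and -0.41 in I183M, I183P and delta for Ip6k3. Mtch1, a protein of the outer mitochondrial membrane, lay between 6.80 and 7.05 on the 11 arrays.

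Of 11 channel, receptor and signalling genes, 0 passed the adjusted threshold. Cacna1h, a T-type calcium channel at the other end of the list, ranged from -1.07 to 0.19 on the 11 arrays with overlapping groups. Arhgdig was dim at -2.96, -2.93 and -2.88 in I183P against -2.40 and -1.57 on the remaining control arrays, a difference of -0.94 ± 0.34 (limma adjusted p = 0.512) that was -0.59 ± 0.38 with all 12 arrays. Rgs11, a regulator of G-protein signalling, read -1.81, -1.39 and -1.02 in delta and -2.34, -2.09 and -1.59 in I183P hearts, and the groups overlapped. Pacsin1, an adaptor of endocytosis, read 5.10, 4.70 and 5.12 in delta against 4.68 and 4.82 on the remaining control arrays, and these overlapped too.

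Of 13 tested genes of protein quality and other functions, 0 passed. Pi16, a secreted protein made by fibroblasts, read 4.06, 4.27 and 4.48 in I183M, 4.75, 4.36 and 4.38 in I183P, 4.09, 3.61 and 3.43 in delta, and 3.09, 4.56 and 4.05 in control hearts. The delta arrays lay below all I183P arrays, with a difference of -0.79 ± 0.36 with all 12 arrays (limma unadjusted p = 0.0557, adjusted p = 1.00), and overlapped the I183M and control arrays. Fibroblast markers (Col1a1, Pdgfra and Dcn) differed between delta and I183P by a median of 0.08, from -0.34 to 0.13, without control replicate 1. Metrn, a secreted factor, read 2.50, 2.22 and 2.01 in delta, 2.83, 2.70 and 2.55 in I183P hearts and 2.87 and 2.63 on the remaining control arrays. Its delta arrays lay below both of those sets, at -0.45 ± 0.15 from I183P and -0.51 ± 0.17 from control without control replicate 1 (limma adjusted p = 0.345 and 0.215); with all 12 arrays the difference from control was -0.08 ± 0.34.

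Several genes of this role were too dim to rank. Capn15, a calpain-family protease, was well above background on 5 arrays and had an I183P difference from control of -1.59 ± 0.62 with all 12 arrays (limma unadjusted p = 0.0289, adjusted p = 0.56), which was -0.82 ± 0.42 without control replicate 1 and 0.03 after normexp and quantile normalization. Wdr90, a centriole protein, was lower than control by -0.46 in I183M and -0.57 in delta hearts with all 12 arrays, where control replicate 1 was highest at -1.81, and by -0.31 and -0.42 without that array. Pdia2, a protein disulphide isomerase, was not well above background on any I183P array and was well above it on 1 array in each of the other groups. With the dim group held at a floor, its I183P level was 2.24-fold lower than I183M and 2.28-fold lower than control, and delta was 2.77-fold higher than I183P. The limma adjusted p of the measured differences was 1.00, 0.56 and 1.00. Scube3, a secreted glycoprotein, was likewise not well above background on any I183P array. With the same floor its I183P level was 1.72-fold lower than I183M and 1.45-fold lower than control, and its delta level 1.67-fold higher than I183P. The floored folds against control rest on control replicate 1: without it the measured I183P difference from control was of the other sign, 0.24 ± 0.94 for Pdia2 and 1.05 ± 0.60 for Scube3. Each floored fold sets the brighter group's mean against the higher of the dim group's own signal and the lowest signal well above background on each array. It is not a lower limit, because the brighter group's mean also takes in arrays that were not well above background. Within I183M and delta hearts, both genes read highest on I183M replicate 1 and delta replicate 2. These arrays had 72.8% and 75.2% of spots well above background, the highest shares after control replicate 1. With normexp and quantile normalization over all 12 arrays, Pdia2 differed by only -0.29 in I183P against I183M and 0.30 in delta against I183P.

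**Figure D4:**
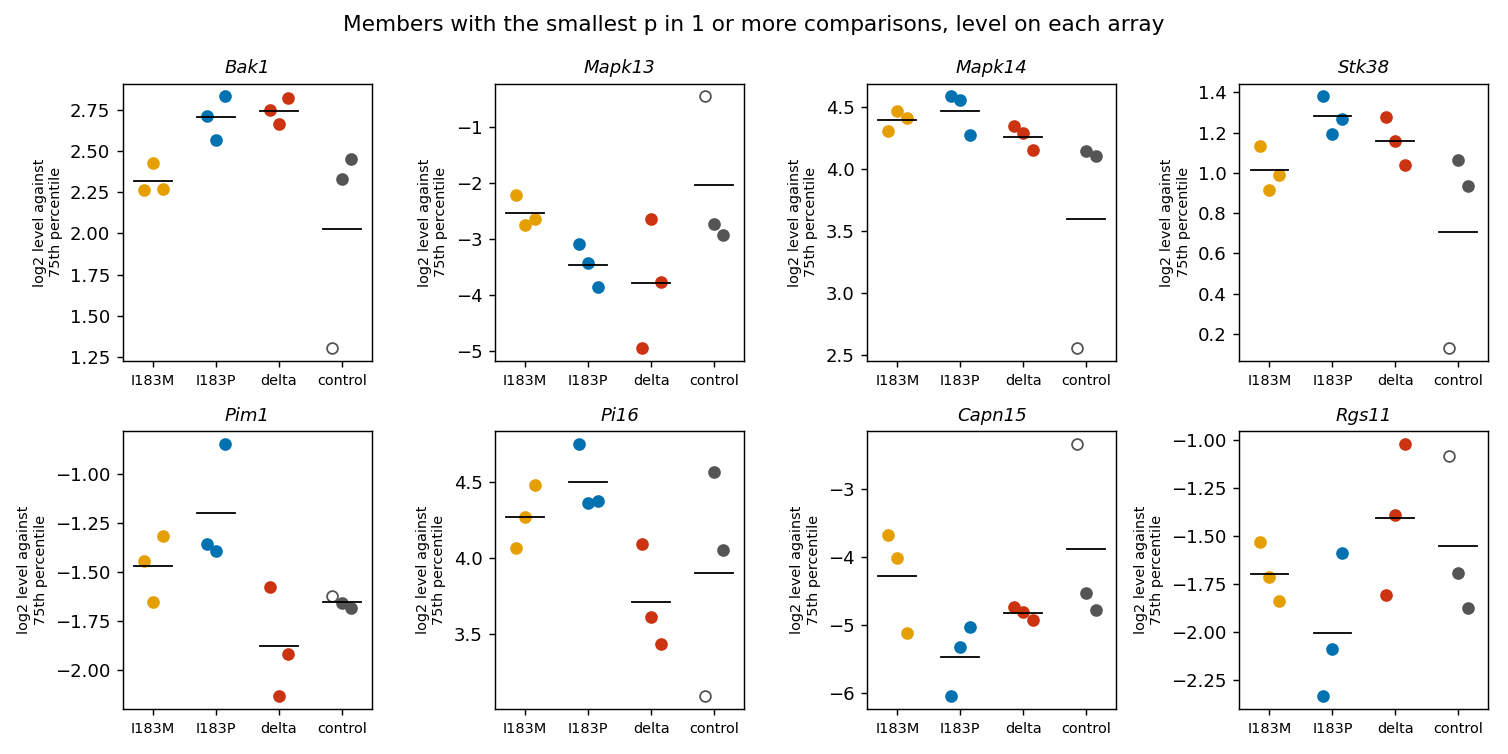
Log2 level relative to the array's 75th percentile of 8 neighbours with the smallest p-values in the 6 comparisons, on each array. Points are arrays, the open circle is control replicate 1 and lines are means of 3 arrays. Bak1 is between 2.57 and 2.83 in the I183P and delta hearts and at most 2.45 elsewhere, whereas Pim1 and Pi16 separate delta from I183P but not from control.

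Direct comparisons of the mutant lines use none of the control arrays for their folds, although the spread is shared with them. On all 12 arrays 0 of 55 neighbours passed the adjusted threshold in I183P against I183M, delta against I183M or delta against I183P, and 0% of all features did. At an unadjusted p under 0.05 there were 0 of 55 against 1.31%, 0 of 55 against 3.29%, and 1 of 55 (1.82%, Pim1) against 2.63%. When control replicate 1 is left out of the estimate of spread, 0 of 55 passed the adjusted threshold, against 0%, 0.047% and 0.0235% of all features. Then 4, 4 and 6 of 55 had an unadjusted p under 0.05 (7.27%, 7.27% and 10.9%), against 9.43%, 11.4% and 11.8% of all features. The 4 genes in delta against I183M were Bak1, Phf1, Mapk13 and Pi16. The median fold over the 55 genes was -0.01, -0.06 and -0.02, beside -0.09, -0.02 and 0.13 over all features.

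The groups separated for a part of the list. I183P arrays lay wholly above I183M arrays for 7 of 55 genes (12.7%, against 6.3% of all features) and wholly below for 6 (10.9%, against 17.8%). Delta arrays lay wholly above I183M arrays for 3 (5.45%, against 10.6%) and wholly below for 3 (5.45%, against 6.5%). Delta arrays lay wholly above I183P arrays for 7 genes (12.7%, against 12.2%) and wholly below for 7 (12.7%, against 6.43%). Against control on all 12 arrays, I183P arrays lay wholly above for 8 (14.5%, against 7.47%) and wholly below for 3 (5.45%, against 5.15%), while delta arrays lay wholly above for 2, Bak1 and Mapk14 (3.64%, against 9.71%), and wholly below for 0 (against 2.96%).

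Different probes of a gene gave a check within the list. There were 18 genes with more than 1 tested probe, 38 probes in all, 2 of the genes having 3. The folds of a gene's probes had the same sign in 13 of 18 genes for I183M against control, 8 for I183P and 9 for delta with all 12 arrays, and in 14, 13 and 11 without control replicate 1. In the direct comparisons the counts were 10 for I183P against I183M, 7 for delta against I183M and 12 for delta against I183P. The gap between the highest and the lowest fold of a gene's probes had a median of 0.33, 0.62 and 0.78 against control with all 12 arrays and of 0.27, 0.31 and 0.28 without control replicate 1. Without that array the median absolute fold of all 55 neighbours, each read from its brightest tested probe, was 0.10, 0.17 and 0.21. A gap is a range over several probes and not a single fold, so the measures are not alike. Some dimmer probes were seldom well above background, such as those of Neurl1b (on 4 of 12 arrays) and Grm4 (on 6).

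Probes of 3 genes pointed in opposite directions with 1 of them at an unadjusted p under 0.05. For Phf1 the brighter probe was 0.50 higher in I183P than in control, whereas the dimmer probe read -2.96, -2.98 and -3.12 in I183P and -0.97, -2.35 and -2.57 in control hearts, a difference of -1.06 ± 0.42 (limma unadjusted p = 0.0299 over probes). Without control replicate 1 both Phf1 probes were below 0, at -0.04 and -0.56. For Mapk14 the brighter probe differed by 0.87 and the dimmer by -0.13 in I183P against control, and by 0.35 and -0.03 without control replicate 1. Grm4, a glutamate receptor of neurons, had a brighter probe with a delta outlier at -0.90 beside -3.60 and -3.59. Its dimmer probe read -4.70, -5.74 and -5.70 in delta, against -3.40, -4.48 and -4.19 in I183M and -2.28, -3.92 and -4.13 in control hearts. That probe lay lower in delta than in I183M by -1.35 ± 0.54 (limma unadjusted p = 0.0302) and was well above background on 1 delta array. Bak1, Pim1, Pi16 and Mapk13 have 1 probe each, so the array offers no second reading of them.

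**Figure D5:**
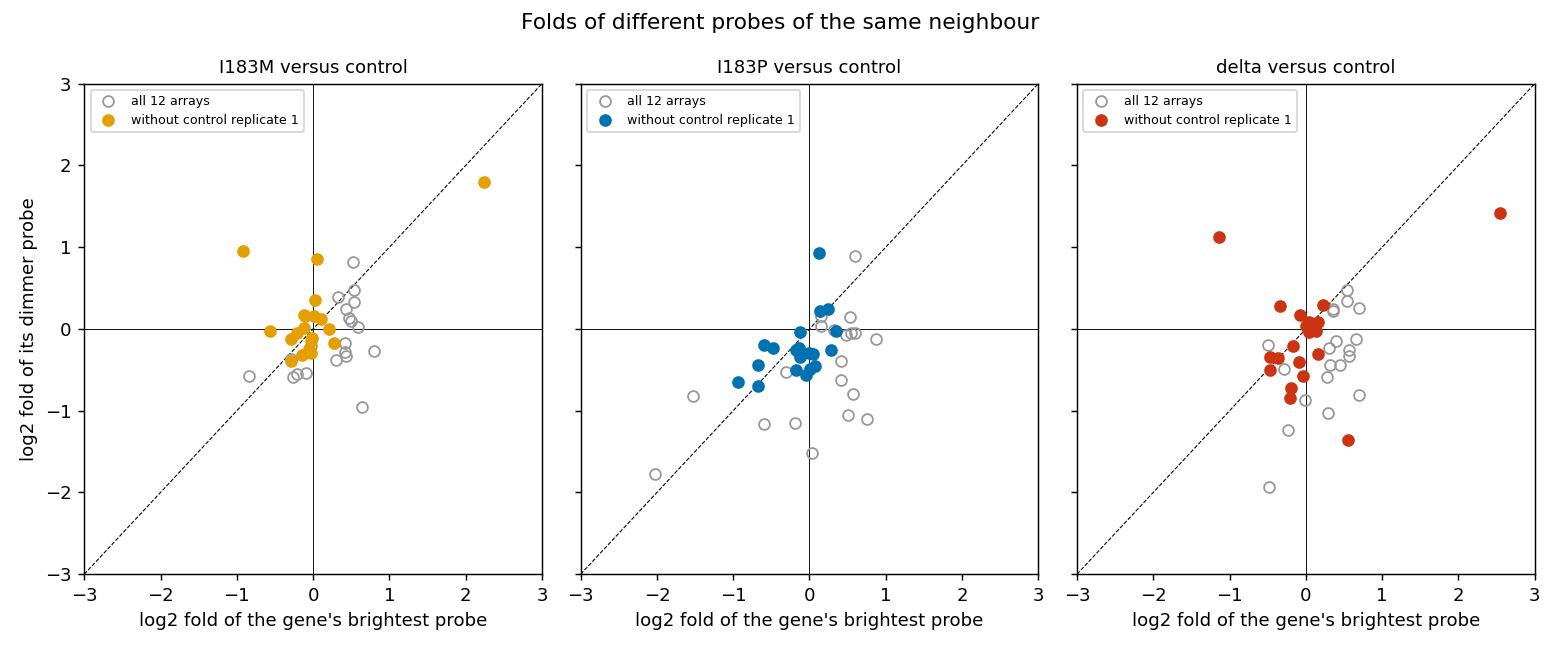
Log2 fold against control of a dimmer probe (vertical axis) and of the brightest probe (horizontal axis) of the 18 neighbours with more than 1 tested probe, for I183M, I183P and delta hearts from left to right. Open circles use all 12 arrays and filled points leave out control replicate 1, and points in the upper left and lower right have probes of opposite sign. Filled points lie mostly within 1 log2 unit of 0 and away from the broken line of equal folds.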

How the data were processed

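RNA of 12 heart samples in 4 groups of 3 was measured on Agilent arrays. Per the file headers, the deposited scanner files hold intensity values per spot from Feature Extraction 11.0.1.1 (protocol GE1_1100_Jul11, layout on mm9), background-corrected within each array and not normalized between arrays. A table deposited by the authors holds processed values whose range fits a log2 scale, and per the submitters' processing notes limma was used, with no version given; that table served as an alternative. Here log2 of the processed intensity was taken, without control spots and spots marked as outliers, replicate spots were averaged, and the 75th percentile over probes was subtracted on each array. Accessions were named through RefSeq genes of GRCm38.p6 (27229 of 55681 probes), and 96 probes lacking a value on some array were dropped. The filter kept 41591 probes that were well above background on at least 3 of 12 arrays, and the brightest of these on average stood for its gene. Differences were fitted with limma 3.58.1 in R 4.3.3 on all groups together, with Benjamini-Hochberg adjustment over all 29795 features and a threshold of 0.05. All p-values given come from this fit or the alternative named with them. The fit was run on simulated data with independent noise, which did not model the shift of control replicate 1 or the slides. The no-overlap counts compare the lowest array of 1 group with the highest of the other.

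The genes named are Nkx2-5, any neighbour past the threshold, the 4 with the smallest p in each comparison, the 3 nearest tested on each side, and those with probes in conflict; others named were chosen after their values were seen. The neighbours and lists were chosen with earlier results of these data known. Alternatives covered background correction, normalization, the filter, probe averaging, array weights, slide and replicate blocks, and leaving out each array. The arrays lie on 2 slides: slide 1 holds all control and I183M arrays and 2 of I183P, slide 2 the remaining I183P array and all delta arrays.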

Additional observations from a re-analysis of the deposited data

How the results depend on the processing

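Of 7 counts of neighbours past the adjusted threshold, each 0, the alternatives changed 2. With array weights, I183P against I183M had 2 neighbours past it, Bak1 and Stk38. Under an alternative chosen after seeing the data, normexp with quantile normalization and no control replicate 1, delta against control had 1, Mapk13. In the other 5 counts the smallest adjusted p of a neighbour under any alternative lay between 0.0537 and 0.145. The replicate numbers were not taken to pair the samples. A correlation of deviations over 0.1 was found in 6 of 18 pairs of same-numbered arrays (range -0.81 to 0.79). It was found in 15 of 36 other pairs (range -0.85 to 0.87), and these counts do not settle whether the numbers pair samples. The fit with the replicate number as a block gave 0 neighbours in all 7 counts. With the slide as a block, or within slide 1 or slide 2, 0 neighbours passed. Of 49 folds of 22 named genes, 24 kept their sign under every alternative, and the others reversed at the values that follow, mostly those near 0 in the nearest genes. The cause was not tested. With array weights, I183M against control gave Bnip1 -0.22, Crebrf -0.070, Atp6v0e -0.13, Phf1 -0.082, Cuta -0.062, Zbtb9 0.073, I183P against control gave Bnip1 -0.27, Atp6v0e -0.14, Phf1 -0.10, Cuta -0.030, and delta against control gave Bnip1 -0.27, Cuta -0.32. In the authors' deposited table, I183M against control gave Atp6v0e -0.036, Cuta -0.0074, I183P against control gave Capn15 0.065, Atp6v0e -0.066, Cuta -0.012, delta against control gave Wdr90 0.00024, Cuta -0.27, and I183P against I183M gave Capn15 0.070, Nkx2-5 -0.030. With the mean of a gene's probes, I183P against control gave Stk38 -0.11, Phf1 -0.28, delta against control gave Phf1 -0.051, and delta against I183M gave Grm4 -0.50. With median centring, I183M against control gave Zbtb9 0.085, I183P against control gave Zbtb9 0.58, and delta against control gave Zbtb9 0.13, Nkx2-5 0.18. With normexp and quantile normalization, I183M against control gave Atp6v0e -0.036, Cuta -0.0066, I183P against control gave Capn15 0.029, Atp6v0e -0.066, Cuta -0.012, delta against control gave Cuta -0.27, and I183P against I183M gave Capn15 0.036, Nkx2-5 -0.029. With both normexp and quantile normalization and control replicate 1 left out, I183M against control gave Bnip1 -0.14, Crebrf -0.36, Atp6v0e -0.074, Phf1 -0.046, Zbtb9 0.056, I183P against control gave Bnip1 -0.21, Atp6v0e -0.10, Cuta -0.0040, delta against control gave Bnip1 -0.26, Crebrf -0.057, Atp6v0e -0.035, Cuta -0.26, Zbtb9 0.044, and I183P against I183M gave Capn15 0.036, Nkx2-5 -0.029. With quantile normalization, I183M against control gave Wdr90 0.13, Atp6v0e -0.085, Cuta -0.019, I183P against control gave Atp6v0e -0.13, Cuta -0.0036, and delta against control gave Wdr90 0.098, Atp6v0e -0.029, Cuta -0.24. Leaving out 1 array at a time turned these folds, which ranged in I183M against control Bnip1 from -0.20 to 0.58, Atp6v0e from -0.11 to 0.63, Phf1 from -0.11 to 0.71, Cuta from -0.053 to 0.76, Zbtb9 from -0.22 to 0.097, in I183P against control Bnip1 from -0.26 to 0.52, Atp6v0e from -0.16 to 0.58, Phf1 from -0.041 to 0.77, Cuta from -0.059 to 0.76, Zbtb9 from -0.32 to 0.00075, in delta against control Bnip1 from -0.27 to 0.51, Atp6v0e from -0.012 to 0.73, Cuta from -0.24 to 0.58, Zbtb9 from -0.42 to 0.052, Nkx2-5 from -0.70 to 0.11, in I183P against I183M Nkx2-5 from -0.044 to 0.079, and in delta against I183M Grm4 from -0.55 to 0.81. The precision is limited by 3 arrays a group and, for 5 neighbours (Capn15, Pdia2, Spdef, Scube3 and Mapk13), by signal that was not well above background on some arrays.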
